A study of Mus musculus with 16 samples.

Results

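Transcript levels of 9 genes of apoptosis and lytic cell death were followed in mouse liver: the anti-apoptotic Bcl2l1 and Mcl1, the BH3-only genes Bid, Bad and Bcl2l11, the initiator caspases Casp8 and Casp9, and the lytic effectors Mlkl and Gsdmd. They were taken by gene symbol from a deposited table of 57010 genes, and all 9 averaged 1 TPM or more (transcript abundance per length, scaled to 1 total in each library) over the 16 libraries, the filter that left 11766 genes to test. The livers came from wild-type C57BL/6J mice, 4 in each of 4 groups. Control mice (numbers 27 to 30) received neither agent, Cd mice (1, 2, 5 and 6) received CdCl2 at 1.25 mg/kg by intraperitoneal injection on each of the last 7 days, Se mice (39, 40, 41 and 44) ate a diet with 2 ppm selenomethionine (SeMet) for 3 months, and Cd+Se mice (13 to 16) received both. Whether control mice were injected with a vehicle is not given in the sources used here. Poly(A)-selected RNA of whole liver was sequenced, so a smaller share of cells of a type and less RNA per cell cannot be told apart.

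Apoptosis can start at death receptors, which bind the adaptor Fadd and through it caspase-8, or at mitochondria, where the pore formers Bax and Bak release cytochrome c and so switch on caspase-9. BH3-only proteins push towards pore formation and anti-apoptotic members of the Bcl2 family hold it back, and Bid, cut by caspase-8, links both routes in hepatocytes. Caspase-8 also cleaves kinases that would otherwise activate Mlkl, the membrane-breaking protein of necroptosis, while gasdermin D (Gsdmd) forms the pores of pyroptosis.

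The metallothioneins Mt1 and Mt2, which bind cadmium, matched the labels: Mt1 lay between 3178 and 6070 TPM in the 8 mice given Cd and between 50.9 and 431 TPM in the 8 others. The hepatocyte markers summed to 34218 TPM or more in every library. Cd mouse 5 stood apart. Its median log2(TPM + 1) over the genes tested was 2.68 against 2.90 to 3.36 in the 15 other libraries, and it had the lowest value of its group in 8 of the 9 genes, so results that rest on it are given with and without it. Over all genes tested the median log2 fold change was -0.17 in Cd against control and 0.17 in Cd+Se against Cd, and member changes are set against these shifts. Fold changes are on the log2(TPM + 1) scale, which understates changes of low genes.

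The 2 genes that passed the test in any comparison were Casp8 and Bcl2l11, and their start regions are shown because they differ in make-up. RefSeq on GRCm38.p6 gave start regions for 8 of the 9 genes. The 250 bases before each start are printed 5′ to 3′, with matches to the motifs listed after them in capitals. The Casp8 region lies at chr1:58802252-58802501 on the plus strand, within the Casp8 gene as GENCODE draws it from an earlier start, and the Bcl2l11 regions lie at chr2:128125788-128126037 and chr2:128127325-128127574 on the plus strand.
Casp8: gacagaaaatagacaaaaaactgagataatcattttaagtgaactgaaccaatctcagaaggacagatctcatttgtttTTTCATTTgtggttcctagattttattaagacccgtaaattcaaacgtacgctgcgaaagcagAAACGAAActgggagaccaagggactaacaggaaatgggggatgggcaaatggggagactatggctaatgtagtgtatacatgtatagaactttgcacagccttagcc
Bcl2l11, upstream start: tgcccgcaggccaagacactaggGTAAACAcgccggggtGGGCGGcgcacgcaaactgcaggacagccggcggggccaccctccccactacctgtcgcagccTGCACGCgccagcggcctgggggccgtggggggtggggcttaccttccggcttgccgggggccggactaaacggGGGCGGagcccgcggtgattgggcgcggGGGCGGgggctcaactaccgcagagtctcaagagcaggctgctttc
Bcl2l11, downstream start: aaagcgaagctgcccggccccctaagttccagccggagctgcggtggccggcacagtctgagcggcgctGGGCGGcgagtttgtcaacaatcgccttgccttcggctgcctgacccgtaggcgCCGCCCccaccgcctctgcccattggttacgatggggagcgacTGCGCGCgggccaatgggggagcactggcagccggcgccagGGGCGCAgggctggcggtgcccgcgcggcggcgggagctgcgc

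G and C made up 39.6% of the Casp8 region and 72.0% and 73.2% of the Bcl2l11 regions, against a median of 52.4% over 32851 start regions of the same length. Motifs were searched on both strands. The Casp8 region held 2 matches to the interferon regulatory factor core AANNGAAA, which 21.3% of all regions held, and no GC box. The upstream Bcl2l11 region held 3 GC boxes (GGGCGG, in 32.7% of all regions) and 1 match to the forkhead core GTAAACA, which 3.17% of all regions held. The metal response core was matched in both Bcl2l11 regions, with 1 match to TGCACNC (10.4% of all regions) in the upstream one and 2 matches to TGCGCNC (12.5%) in the downstream one. Members that did not pass the test held such matches too. A metal response core was matched in regions of Bcl2l1, Bid and Bad, the interferon regulatory factor core in regions of Bcl2l1, and the GC box in those of Mcl1, Bid, Bad and Casp9. None of these 3 regions held the AP-1 core TGANTCA, found in 6.75% of all regions. The share of regions with either form of the metal response core was not counted, and no share was matched for G and C content. The matches describe the letters of these windows and nothing more.

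In control liver Mcl1, which holds back mitochondrial pore formation and turns over fast, was the most abundant of the 9 transcripts at 39.8 TPM ± 3.12 (SD, n = 4). Gsdmd at 19.0, Casp8 at 18.6, Bad at 14.3 and Bcl2l1 at 13.4 TPM followed, and each of these neighbours overlapped the next in its range over the 4 control mice. Bid at 10.2, Casp9 at 4.80, Bcl2l11 at 2.67 and Mlkl at 1.51 TPM came below them, and here each neighbour's range lay clear of the next. TPM are per length, so these levels can be set beside each other. Over all 16 mice the highest value was 4.63 times the lowest for Mlkl and 4.52 times for Bcl2l11, the least abundant pair, and 1.81 times for Bid and 1.83 times for Casp8.

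The members differed in how far the mice of a group spread. Mcl1 ran from 37.2 to 43.5 TPM in control, 26.99 to 46.60 in Cd, 25.8 to 45.0 in Se and 32.1 to 53.6 TPM in Cd+Se mice, and every group's range held the control mean. Bid, the BH3-only substrate of caspase-8, ran from 9.54 to 10.7, 6.78 to 11.7, 8.25 to 11.99 and 8.19 to 12.3 TPM in the same order. For both genes the coefficient of variation was lowest in control, at 7.84% for Mcl1 against 21.9% to 25.7% in the other groups and at 5.22% for Bid against 16.5% to 24.0%, a difference in spread that was not tested. Casp9 ran from 2.92 to 5.84 TPM in Se and 3.93 to 5.88 TPM in Cd+Se mice, both around its control range. In Se mice Bcl2l11 held a narrow range of 2.65 to 2.98 TPM, and Bad ran from 12.6 to 19.2 TPM.

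**Figure D1:**
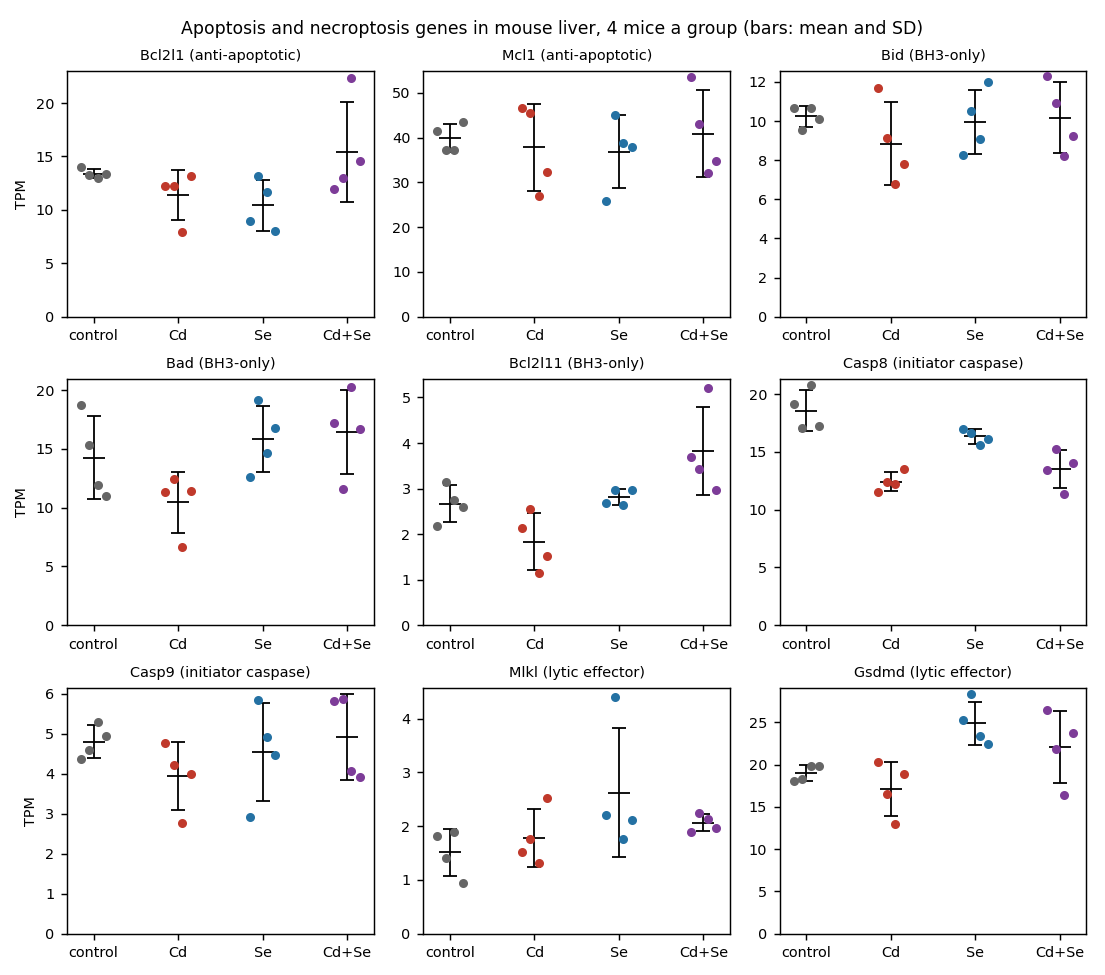
TPM of the 9 genes (y axes, from 0) in the 4 groups (x axes), with 1 point per mouse and bars for the mean and SD of 4 mice. The Casp8 points of Cd and Cd+Se, from 11.4 to 15.3 TPM, all lie below those of control and Se, from 15.6 to 20.8 TPM, and the Bcl2l11 points of Cd+Se all lie above those of Cd.

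Comparing Cd with control asked how cadmium alone changed these transcripts. Casp8 fell and the 8 others did not pass the test. That is 1 of 9 called, against 30.8% of all genes tested in this comparison and 24.9% called lower, so calls were no more frequent among the 9 genes than among genes at large. The fitted change was negative for 8 of 9, with a median of -0.24 against -0.17 over all genes. The groups lay clear of each other for 1 of 9 genes and for 34.2% of all genes.

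Casp8, the initiator caspase of death receptors, was at 19.17, 17.05, 20.83 and 17.25 TPM in control mice and at 11.53, 12.39, 12.23 and 13.53 TPM in Cd mice. Every Cd mouse was below every control mouse. The mean was 18.6 ± 1.78 TPM in control and 12.4 ± 0.83 TPM in Cd (SD, n = 4 each), a log2 fold change of -0.54 (SE 0.103, 95% interval -0.76 to -0.32, limma adjusted p = 0.00151), or -0.37 relative to the median of all genes. The call held under all 15 other settings, with adjusted p from 0.00121 to 0.0431. Without Cd mouse 5 the change was -0.54 (adjusted p = 0.00359), and under quantile normalization and median centring it was -0.37 and -0.32. The Kupffer cell markers, which belong to the resident macrophages of liver, summed to 101 to 125 TPM in control and 33.9 to 52.6 TPM in Cd mice, where 5 of 5 fell. The neutrophil markers summed to 6.58 to 16.7 TPM in control and 32.5 to 41.3 TPM in Cd mice, where 3 of 4 rose. The hepatocyte markers summed to 53329 to 75065 TPM in control and 34218 to 60425 TPM in Cd mice, where 2 of 5 fell. Alb made up most of the hepatocyte sums and did not pass (log2 fold change -0.68, limma adjusted p = 0.056). None of the Kupffer cell, neutrophil and hepatocyte markers was at 0 in all libraries. Of the other lists, 2 of 4 monocyte and macrophage markers rose and 1 fell. Of the endothelial markers 2 of 5 and of the stellate cell markers 1 of 3 fell, and the 1 cholangiocyte marker tested did not pass. Of all genes tested, 30.8% were called in this comparison and 24.9% called lower. No T, NK or B cell marker reached the filter, and these summed to 1.45 to 7.93 TPM over the 16 libraries. The part of these shifts in the change of Casp8 was not tested.

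Bcl2l11 encodes Bim, a BH3-only protein that binds the anti-apoptotic members, and was at 2.17, 3.15, 2.76 and 2.59 TPM in control and 2.13, 2.55, 1.15 and 1.52 TPM in Cd mice. Cd mice 1, 5 and 6 lay below every control mouse, mouse 1 by a small margin, and mouse 2 lay within the control range. The log2 fold change was -0.39 (SE 0.164, limma adjusted p = 0.0812). It passed the test in 1 of 14 other settings, without Cd mouse 2 (-0.51, adjusted p = 0.0327), and was -0.27 without Cd mouse 5.

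Bad, the BH3-only protein controlled by growth factor kinases, was at 18.76, 15.35, 11.93 and 10.98 TPM in control and 11.32, 12.42, 6.65 and 11.42 TPM in Cd mice. The Cd mice lay in the lower part of the control range or below it. The log2 fold change was -0.42 (SE 0.208, adjusted p = 0.138), and -0.23 without Cd mouse 5.

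For the other members the groups overlapped and the adjusted p was 0.307 or above. Bcl2l1, which encodes the anti-apoptotic Bcl-xL, ranged from 13.02 to 13.97 TPM in control and from 7.90 to 13.2 TPM in Cd mice (-0.24, and -0.09 without Cd mouse 5). Casp9, the initiator caspase of the mitochondrial route, ranged from 4.36 to 5.30 and from 2.77 to 4.78 TPM (-0.25, and -0.12 without Cd mouse 5). Mlkl ranged from 0.95 to 1.89 and from 1.31 to 2.53 TPM and had the one positive value, 0.15, which was 0.23 without Cd mouse 5 and 0.03 without Cd mouse 6. The values of Mcl1 (-0.10), Bid (-0.21) and Gsdmd (-0.16) changed sign under median centring (0.12, 0.0050 and 0.06), those of Mcl1 and Gsdmd also under quantile normalization (0.01 and 0.0055), and that of Mcl1 also without Cd mouse 5 (0.04, beside -0.11 for Bid and -0.04 for Gsdmd), so no direction is given for them. Part of Bad (20.5% of its exonic bases) and of Bid (17.7%) is shared with exons of Gpr137 and Bcl2l13 on the opposite strand, and whether the quantification used strand is not given in the sources used here.

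**Figure D2:**
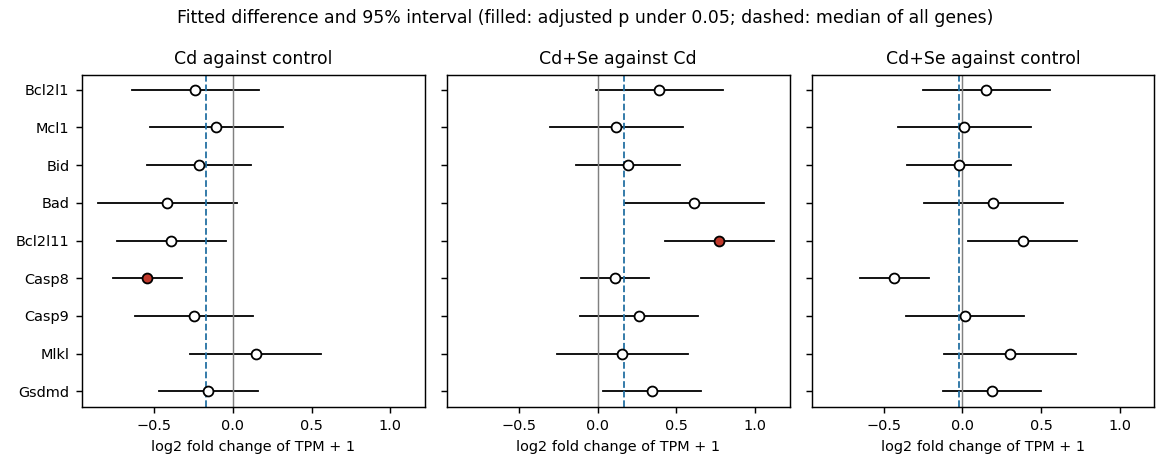
Fitted log2 fold change of TPM + 1 (x axes) of the 9 genes (rows) with its 95% interval, for Cd against control, Cd+Se against Cd and Cd+Se against control, with filled points at an adjusted p under 0.05 and a dashed line at the median of all genes tested. Casp8 at -0.54 is the filled point on the left and Bcl2l11 at 0.77 the one in the middle, and none is filled on the right.

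Comparing Cd+Se with Cd asked what the selenium diet changed in mice given cadmium. Bcl2l11 rose and the 8 others did not pass. This is again 1 of 9, against 15.9% of all genes called and 13.6% called higher. All 9 values were positive, with a median of 0.26 against 0.17 over all genes. For 1 of 9 genes the groups lay clear of each other, which held for 19.2% of all genes. The Cd mice serve in this comparison and in that with control, so the opposite signs of the pair are no separate evidence.

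Bcl2l11 was at 3.70, 3.44, 5.20 and 2.96 TPM in Cd+Se mice, all above the highest Cd mouse at 2.55 TPM. All but mouse 16 were also above every control mouse. The mean was 3.83 ± 0.967 TPM in Cd+Se and 1.84 ± 0.624 TPM in Cd (SD, n = 4 each), a log2 fold change of 0.77 (SE 0.164, 95% interval 0.42 to 1.12, limma adjusted p = 0.0101), or 0.60 relative to the median of all genes. It passed in 13 of 14 other settings, among them quantile normalization (0.62), median centring (0.58) and the fit without Cd mouse 5 (0.65, adjusted p = 0.0307). In the fit of only the Cd and Cd+Se mice it did not pass (adjusted p = 0.0719). The monocyte and macrophage markers summed to 69.6 to 118 TPM in Cd+Se and 38.7 to 58.5 TPM in Cd mice, where 2 of 4 rose, and the hepatocyte markers to 43198 to 65389 TPM in Cd+Se mice, where 2 of 5 rose. Lyz2 made up most of the monocyte and macrophage sums, with means of 83.9 of 92.21 TPM in Cd+Se mice. It rose, as did Adgre1, which had fallen in Cd against control, while Ly6c2 and Ccr2 did not pass. Of 5 endothelial markers 1 rose, Lyve1 (log2 fold change 1.09, limma adjusted p = 0.0138), and no Kupffer cell, neutrophil, stellate cell or cholangiocyte marker passed. Of all genes tested, 13.6% were called higher in this comparison. The part of these shifts in the change of Bcl2l11 was not tested.

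Casp8 in Cd+Se mice was at 13.48, 15.27, 11.39 and 14.02 TPM, overlapping the Cd mice, whose highest value was 13.53 TPM. The log2 fold change against Cd was 0.11 (SE 0.103, 95% interval -0.11 to 0.33, adjusted p = 0.479), and -0.06 and -0.08 under quantile normalization and median centring. All 8 mice given Cd, between 11.39 and 15.27 TPM, had less Casp8 transcript than all 8 others, between 15.58 and 20.83 TPM. Casp8 was the 1 gene of the 9 with such a split, which 1.71% of all genes tested showed in either direction. The split was no planned comparison and reuses the mice of the group comparisons, so it is no separate evidence. The neutrophil marker sums split the same animals, at 32.5 TPM or more in all mice given Cd and 16.7 TPM or less in all others. S100a8 and S100a9 made up most of these sums, with means of 12.65 and 21.25 of 37.17 TPM in Cd mice. Ly6g, of the same list, was at 0.17 TPM or less in every library and at 0 in all Cd+Se mice. The Kupffer cell marker sums were lower in mice given Cd but overlapped, at 29.8 to 62.9 TPM in Cd+Se and 54.7 to 138 TPM in Se mice. Within that list Clec4f, Vsig4 and Timd4 did split the same animals, each lower in all mice given Cd. Clec4f was at 21.07 TPM or less with Cd and 23.85 TPM or more without. Vsig4 was at 5.62 or less and 8.74 or more, and Timd4 at 0.65 or less and 2.14 or more. Cd5l and Marco overlapped. The part of the neutrophil and Kupffer cell markers in the Casp8 split was not tested.

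Bad was at 17.17, 11.60, 20.25 and 16.66 TPM in Cd+Se mice, 3 of them above every Cd mouse. Its log2 fold change against Cd was 0.61 (SE 0.208, 95% interval 0.17 to 1.05, limma adjusted p = 0.0553). It passed in 2 of 15 other settings, without Cd+Se mouse 14 (adjusted p = 0.0465) and under a filter at 5 TPM (0.0486), and fell to 0.43 without Cd mouse 5.

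Gsdmd was at 26.45, 21.81, 16.35 and 23.69 TPM in Cd+Se and 20.25, 16.48, 13 and 18.84 TPM in Cd mice. Mouse 15 lay within the Cd range, and the other Cd+Se mice exceeded every Cd mouse. The log2 fold change was 0.34 (SE 0.148, adjusted p = 0.117), and 0.23 without Cd mouse 5 (adjusted p = 0.323). Without Cd+Se mouse 15 it was 0.48 and passed (adjusted p = 0.0415).

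Bcl2l1 reached its highest value of the series, 22.31 TPM, in Cd+Se mouse 15, against 11.96, 12.94 and 14.54 TPM in the other mice of that group. The same mouse also had the highest Bcl2l11 and Bad. The log2 fold change of Bcl2l1 against Cd was 0.39 (SE 0.191, adjusted p = 0.163), 0.21 without Cd+Se mouse 15 and 0.24 without Cd mouse 5. Casp9 had 0.26 (adjusted p = 0.318), and 0.14 without Cd mouse 5. Mcl1 (0.12), Bid (0.19) and Mlkl (0.16) turned negative under median centring (-0.08, -0.0028 and -0.04), Mlkl also under quantile normalization (-0.0024) and Mcl1 also without Cd mouse 5 (-0.03, beside 0.09 for Bid and 0.07 for Mlkl), so no direction is given for them.

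Set against control, the Cd+Se mice had no call among the 9 genes, where 0.484% of all genes passed. At an unadjusted p under 0.05 there were 2 of 9, against 10.9% of all genes, and the groups lay clear of each other for 2 of 9, against 8.86%. Casp8 was below control in all 4 mice with a log2 fold change of -0.43 (SE 0.103, 95% interval -0.65 to -0.21, limma adjusted p = 0.087, and 0.0637 to 0.301 over 15 other settings). Bcl2l11 was at 0.38 (SE 0.164, adjusted p = 0.407). Mlkl, at 1.90, 2.24, 2.14 and 1.97 TPM, lay just above the highest control mouse at 1.89 TPM (log2 fold change 0.30, adjusted p = 0.622, and 0.19 without control mouse 30).

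Cd+Se against Se, the cadmium effect within mice on the selenium diet, also gave no call among the 9, where 0.714% of all genes passed. Again 2 of 9 had an unadjusted p under 0.05, against 10.9% of all genes, and 1 of 9 lay clear, against 5.64%. The gene that lay clear was Casp8, at 17.03, 16.64, 15.58 and 16.14 TPM in Se mice, all above the highest Cd+Se mouse at 15.27 TPM. Its log2 fold change was -0.26 (SE 0.103, 95% interval -0.48 to -0.04, adjusted p = 0.344). Bcl2l1 was at 8.97, 13.18, 11.64 and 8 TPM in Se mice, with 0.51 (SE 0.191, adjusted p = 0.317), and 0.33 without Cd+Se mouse 15.

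Se against control had 0% of all genes past the test and none of the 9, with 2 of 9 at an unadjusted p under 0.05 against 3.86% of all genes. Gsdmd was at 25.28, 28.31, 23.37 and 22.46 TPM in Se and 18.04, 18.25, 19.80 and 19.84 TPM in control mice, so that all Se mice were above all control mice (log2 fold change 0.37, SE 0.148, limma adjusted p = 1). Casp8 lay just clear in the other direction, lower in Se, where the highest mouse was at 17.03 TPM and the lowest control mouse at 17.05 TPM (-0.17, SE 0.103). Those are 2 of 9 genes that lay clear, against 3.09% of all genes. Mlkl was at 2.21, 4.40, 1.76 and 2.12 TPM in Se mice (0.49, SE 0.197), where mouse 40 stood far above the others, and the change was 0.28 without it. That mouse had the highest value of its group in 7 of the 9 genes and the highest library median.

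The interaction asks whether the cadmium effect differed between the diets. None of the 9 passed, against 1.04% of all genes (122 genes, and 3 to 349 when 1 mouse was left out, the lowest without Cd+Se mouse 14 and the highest without Se mouse 40), and 2 of 9 had an unadjusted p under 0.05, against 21.3%. Those were Bcl2l1 (0.75, SE 0.270, limma adjusted p = 0.136) and Bcl2l11 (0.71, SE 0.232, adjusted p = 0.111). For Casp8 the interaction was 0.28 (SE 0.146, 95% interval -0.03 to 0.59, adjusted p = 0.276), where the median of all genes was 0.16, so a different fall of Casp8 on each diet was not shown.

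**Figure D3:**
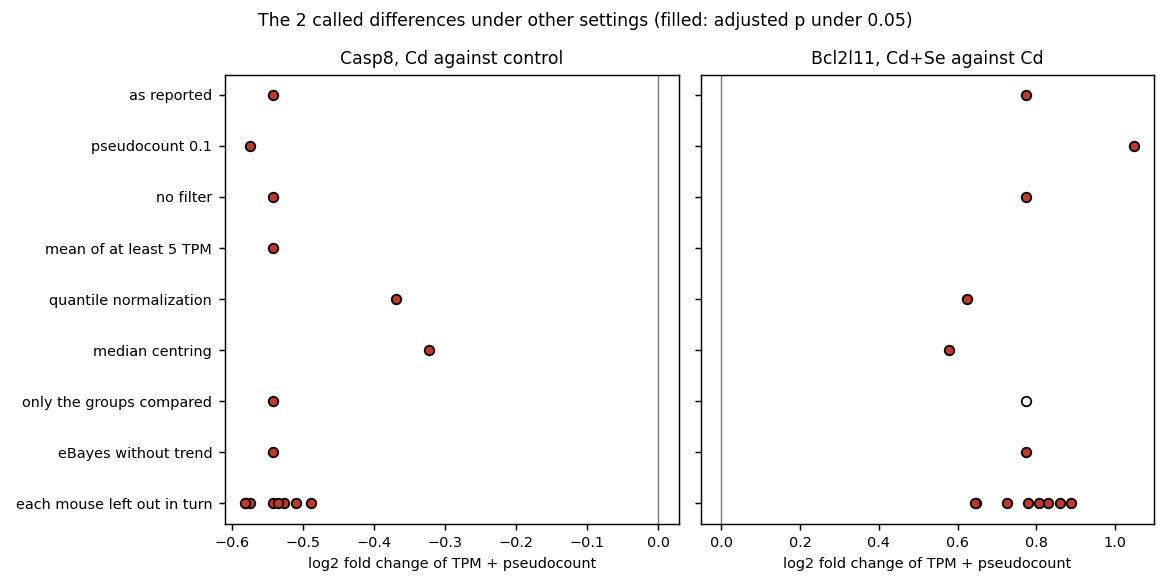
Log2 fold change (x axes) of Casp8 in Cd against control and of Bcl2l11 in Cd+Se against Cd as reported and under other settings (rows), filled at an adjusted p under 0.05; the last row has 1 point for each of 8 mice left out. All Casp8 points lie between -0.58 and -0.32 and are filled, and the 1 open Bcl2l11 point is the fit of only the groups compared (adjusted p = 0.0719).

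A list of 52 other genes of these pathways gives the setting. Of these, 41 passed the filter. Under Cd the 41 had a median of -0.15, against -0.17 over all genes, and 12 passed the test, against 30.8% of all genes. Of the 12, 4 were higher and 8 lower, where 24.9% of all genes were called lower. Scaling moved that split, to 7 and 7 under quantile normalization and 10 and 4 under median centring, and 7 genes passed without Cd mouse 5.

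Among the pore formers, Bak1 fell from 5.91 ± 0.795 to 2.52 ± 0.421 TPM (SD, n = 4 each, log2 fold change -0.97, limma adjusted p = 0.000144), while Bax rose from 16.7 ± 1.62 to 29.6 ± 5.64 TPM (0.77, adjusted p = 0.0082). Both kept their call in every other setting run, 14 for Bak1 and 15 for Bax. Bbc3, the BH3-only protein Puma and a p53 target, rose (0.68, limma adjusted p = 0.0495). It passed in 7 of 14 other settings, and not without Cd mouse 5. The anti-apoptotic Bcl2l2 (-0.69) and the caspase inhibitor Xiap (-0.68) fell, each in all 15 other settings.

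At the death receptors, Fadd, the adaptor that recruits caspase-8, fell as Casp8 did. It was at 1.93, 1.93, 2.55 and 2.16 TPM in control and 1.07, 1.11, 0.82 and 1.12 TPM in Cd mice (-0.63, SE 0.114, limma adjusted p = 0.00116). No mouse of one group reached the other's range. Of the 6 listed death receptor and adaptor genes tested, Fadd alone passed, and Fas, Tnfrsf1a, Tradd, Traf2 and Cflar did not. The stress-linked Casp2 (-0.51, adjusted p = 0.0326) fell and Gsdme (0.44, adjusted p = 0.0343), a gasdermin opened by caspase-3, rose. Gsdme passed in 7 of 14 other settings and so did Casp2, which did not pass without Cd mouse 5, while Gsdme lost its call without Cd mouse 1 or 2 or any control mouse but 29.

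With selenium added to cadmium, the median was 0.19 against 0.17 over all genes. Of the 41, 10 passed, 9 higher and 1 lower, against 15.9% of all genes called and 13.6% called higher. Scaling gave 7 higher and 3 lower (quantile) or 3 and 5 (median centring). Without Cd mouse 5 there were 3, and in the fit of the Cd and Cd+Se mice alone 0 of the 41 passed by limma, with 13 at an unadjusted p under 0.05, and 66 of all genes passed.

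Fadd was at 1.70, 2.19, 1.82 and 1.98 TPM in Cd+Se mice, all above the Cd mice (0.53, limma adjusted p = 0.0111), and -0.10 from control (adjusted p = 0.807). Beside it, Casp8 stood at 0.11 from Cd and -0.43 from control, and the difference between both genes was not tested. Bak1 rose by 0.63 (adjusted p = 0.00735) to 4.45 ± 0.681 TPM. Ripk1 (0.57), the kinase upstream of necroptosis, and Cyld (0.49), which removes ubiquitin from it, rose too, as did Birc3 (0.59), Bcl2l2 (0.54) and Xiap (0.50). Without Cd mouse 5 Ripk1, Cyld, Birc3, Bcl2l2 and Xiap did not pass. Fadd and Bak1 passed with any 1 Cd or Cd+Se mouse left out (limma adjusted p up to 0.0401 and 0.0284). Of 15 other settings Ripk1 passed in 12, Cyld in 9, Bcl2l2 and Xiap in 7 each and Birc3 in 6. Il18, a cytokine released through gasdermin D pores, was the 1 gene that fell (-0.56, adjusted p = 0.0154), and it passed in 14 of 15 other settings. Bax (-0.20, adjusted p = 0.505) and Bbc3 (0.04, adjusted p = 0.938) did not pass.

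**Figure D4:**
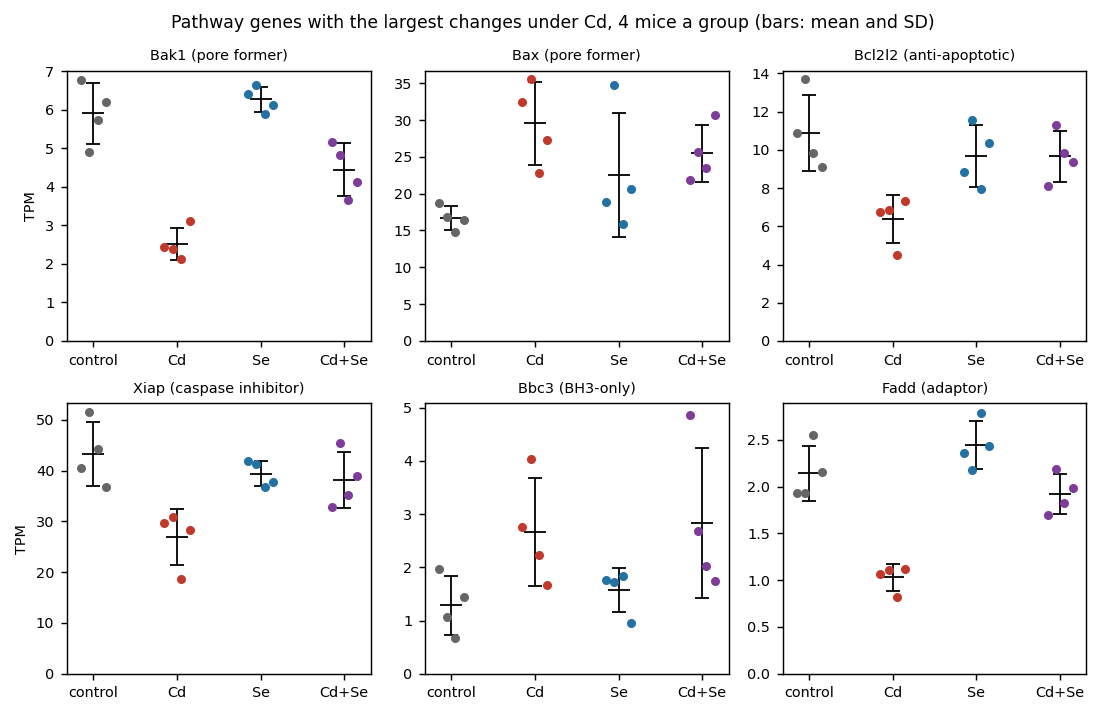
TPM (y axes, from 0) of 6 genes of the wider list with the largest changes under Cd, in the 4 groups (x axes), with 1 point per mouse and bars for the mean and SD of 4 mice. Bak1, Bcl2l2, Xiap and Fadd are lower and Bax higher in Cd than in control with no overlap, while the Bbc3 groups overlap.

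In the other comparisons and the interaction, 1 pathway gene passed, in Cd+Se against Se, where 0.714% of all genes did. Bcl2a1b, an anti-apoptotic gene of white blood cells, was at 0.953 ± 0.336 TPM in Se and 3.27 ± 0.861 TPM in Cd+Se mice (SD, n = 4 each, log2 fold change 1.12, limma adjusted p = 0.0218). It passed in 9 of 14 other settings and not in the 5 others (adjusted p up to 0.12), among them the fits without Cd+Se mouse 13, Se mouse 39 or Se mouse 44. It has near-identical copies, so reads may be split among them. The neutrophil markers summed to 5.85 to 9.67 TPM in Se and 45.9 to 76.6 TPM in Cd+Se mice, where 4 of 4 rose. Of the monocyte and macrophage markers 2 of 4 rose, of the Kupffer cell markers 3 of 5 fell, and of the endothelial markers 1 of 5 rose. No hepatocyte, stellate cell or cholangiocyte marker passed. The part of these shifts in the change of Bcl2a1b was not tested. Ripk3, the kinase that phosphorylates Mlkl, was under the filter at 0.665 ± 0.190 TPM in control and 1.26 ± 0.647 TPM in Cd mice (SD, exact two-sided permutation p = 0.0571, where 0.0286 is the smallest p possible). It was at 1.71, 1.12, 0.83 and 1.05 TPM in Cd+Se mice, all above the Se mice at 0.56, 0.81, 0.63 and 0.20 TPM (exact permutation p = 0.0286, not adjusted for the comparisons made).

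How alike the 9 genes ran over the libraries is given as a description. Over the 36 pairs, Pearson's r of log2(TPM + 1) across the 16 libraries had a median of 0.34 and ran from -0.13 for Bcl2l1 and Casp8 to 0.85 for Mcl1 and Casp9, and the median within groups was 0.29. The genes share libraries, and library-wide shifts such as that of Cd mouse 5 enter every pair. Among 10482 other protein-coding genes, those most like Casp8 over the 16 libraries were Gorasp1 (r = 0.908) and Fn3krp (0.902), and those most like Bcl2l11 were Skil (0.927) and Tmem131 (0.926). For Mcl1 they were Ube2h (0.916) and Hnrnpu (0.916), for Bcl2l1 Ccl6 (0.837) and Klf3 (0.835), and for Bid Kdm5d (0.906) and 1600012H06Rik (0.894). Bad was most like Aga (0.906) and Pigf (0.899), Casp9 most like Tef (0.877) and Mgat1 (0.874), Mlkl most like Ano10 (0.843) and Nqo1 (0.820), and Gsdmd most like Tnfsf13 (0.856) and Krcc1 (0.848). These genes were picked as the highest of 10482 values over only 16 libraries, and library-wide shifts and group differences enter them too.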

How the data were processed

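The authors deposited 1 table of TPM values per gene, with 1 column for each of the 16 mice although the labels name 2 runs per mouse. The submitters' processing notes name fastp, HISAT2, StringTie and the build GRCh38, a human build, whereas the identifiers are those of mouse genes. The library kit was not stated to keep strand. Because TPM are rescaled to 1 total per library, their depth is unknown; no count model was used, and the number of mice limits the precision. Each mouse is taken as 1 replicate.

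Genes averaging 1 TPM or more were compared as log2(TPM + 1) with limma 3.58.1 in R 4.3.3, in 1 model of 4 groups with an intensity trend, and p-values were adjusted by Benjamini-Hochberg over all genes tested at 0.05. The fit was tested on simulated data with genes drawn independently and no library-wide shift. That test therefore does not cover shifts such as that of Cd mouse 5. Ripk3 was compared by an exact permutation test over 70 arrangements. Alternatives were a pseudocount of 0.1, no filter, a filter at 5 TPM, quantile normalization, median centring, only the groups compared, no trend, and leaving out each mouse. Groups were called clear when their ranges did not overlap.

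The 9 members, the pathway list and the marker lists were chosen with earlier results of these data known. The text names all 9 members, the label checks, the pathway genes past the threshold with the largest changes (up to 8 in Cd against control and in Cd+Se against Cd, up to 6 elsewhere) and the 2 most alike genes of each member. Ripk3, Lyve1, Bax and Bbc3 in Cd+Se against Cd, Fadd in Cd+Se against control and the motifs were added after the values and sequences were seen. So were the other single cell type markers named and the death receptor genes that did not pass. Gene positions come from GENCODE M21 (GRCm38) by Ensembl identifier.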

Additional observations from a re-analysis of the deposited data

Results flagged for a closer look

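Mlkl in the Se group was the 1 value set apart by a wide gap. Mouse 40 was at 4.40 TPM and its 3 group mates between 1.76 and 2.21 TPM. On the TPM scale the gap made up 0.8295 of the group's range, just past Dixon's 95% critical value for 4 samples. It was not examined on the log2(TPM + 1) scale of the fits, where the mouse was at 2.43 and its group mates between 1.46 and 1.68. With 36 groups looked at, chance gives about 1.8 such gaps, or 1 in 20 groups.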

How the results depend on the processing

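Of 855 alternative fits over the 54 member fold changes, 807 kept the direction and the side of the threshold, 1 lost its call, 4 gained one and 43 changed sign, none of these with an adjusted p under 0.05 in either fit. In Cd against control 1 member was called, and 1 to 2 when a mouse was left out. In Cd+Se against Cd 1 member was called, 1 to 2 when a mouse was left out and 0 in the limma fit of only the groups compared, where 2 members had an unadjusted p under 0.05. The calls gained were Bcl2l11 under Cd without Cd mouse 2, and in Cd+Se against Cd Bad without Cd+Se mouse 14 and above 5 TPM, and Gsdmd without Cd+Se mouse 15.

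Signs that changed with scaling were as follows. Quantile normalization gave Mcl1 0.012 and Gsdmd 0.0055 in Cd against control, and Casp8 -0.0577 and Mlkl -0.0024 in Cd+Se against Cd. Median centring gave Mcl1 0.1154, Bid 0.0050 and Gsdmd 0.0642 in Cd against control, Mcl1 -0.0771, Bid -0.0028, Casp8 -0.0835 and Mlkl -0.0387 in Cd+Se against Cd, and Bid 0.0023 in Cd+Se against control.

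Leaving out 1 mouse gave ranges that cross 0 for Mcl1 in Cd against control (-0.2143 to 0.0411), Cd+Se against Cd (-0.0284 to 0.2269), Cd+Se against Se (-0.0130 to 0.2493), Cd+Se against control (-0.1237 to 0.1170) and Se against control (-0.2353 to 0.0256). The same held for Bid in Cd+Se against Se (-0.0641 to 0.1136), Cd+Se against control (-0.1123 to 0.0655) and Se against control (-0.1340 to 0.0293), and for Casp9 in the same order (-0.0510 to 0.2167, -0.0639 to 0.0964 and -0.2023 to 0.0654). It held for Bad (-0.0619 to 0.1894) and Mlkl (-0.3057 to 0.0171) in Cd+Se against Se, Bcl2l1 in Cd+Se against control (-0.0287 to 0.2536), Bcl2l11 in Se against control (-0.0035 to 0.1260) and Gsdmd in the interaction (-0.1419 to 0.1073).

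Pathway list calls under Cd (12) were 6 to 10 with a mouse left out, 6 with no filter, 7 above 5 TPM and 7 in the fit of only the groups compared. In Cd+Se against Cd (10) they were 3 to 10, 6, 8 and 0. All genes called numbered 3619 under Cd, and 1876 in Cd+Se against Cd, where they were 730 without Cd+Se mouse 14, 762 without Cd mouse 5, 1131 with no filter and 66 in the fit of only the groups compared. The cause was not tested. No paired analysis was possible because the groups share no mouse numbers. TPM give no depth, so no counting error can be given for low genes such as Mlkl and Bcl2l11.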
